A study of Mus musculus with 16 samples.

Results

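CD45+ and CD45- cells of Tie-2-Etv2 embryos were compared on 4 of the 16 arrays of the series. The comparison set 2 arrays of VE-cadherin+/CD45+ cells, sorted as gate P4, against 2 arrays of VE-cadherin+/CD45- cells, sorted as gate P3. Both gates came from the embryo proper of mice at E11.5, the stage the labels give, on a mixed strain background (B6/CBA and others). In the Tie-2-Etv2 genotype an Etv2 transgene was turned on by a Cre transgene labelled Tie-2. The cells that express such a Cre, and the cells descended from them, set where the transgene can act. All compared cells also carried VE-cadherin on their surface, since the sort required it. Control embryos (2 arrays per gate) and Tie-2-Etv2 yolk sacs (2 arrays per gate) served for comparison, each sorted in the same way and at the same stage; the labels call the control animals only control. The CD45- Tie-2-Etv2 titles name only Tie-2, while the genotype and source labels of those samples name Tie-2-Etv2. The labels leave unsaid whether replicates of a group are different embryos, litters or pools, and the p-values therefore cover only the spread among these arrays, part of which could be technical.

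VE-cadherin is the adhesion protein of endothelial cell junctions and is encoded by Cdh5. CD45 is a tyrosine phosphatase on the surface of nearly all white blood cells and is encoded by Ptprc. In the mid-gestation embryo some endothelial cells, called hemogenic, give rise to blood cells, and cells leaving the vessel wall can carry both proteins for a time. Etv2 belongs to the ETS transcription factors and is needed to form the first blood and endothelial cells, and it is normally switched off in the endothelium by mid-gestation. Tek encodes Tie-2, an endothelial receptor for angiopoietins that some blood cells also carry. PU.1, encoded by Spi1, is another ETS factor and drives the development of macrophages and granulocytes.

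The purine-rich motif bound by PU.1 was looked for beside genes of those cells, because macrophage and granulocyte genes led the comparison and Spi1 was higher with them; the motifs and the genes shown were chosen after their values were seen. Motifs of 3 kinds were searched on both strands: GAGGAAGT (the PU.1 type), CCGGAAGT (other ETS factors, which shares its last 6 letters) and the motif of the erythroid and megakaryocytic zinc-finger factors, AGATAA. GAGGAAGT lay within the 300 bases around a gene start (250 before, 50 after) in 3.20% of all 32851 RefSeq promoters of GRCm38.p6 and in 3.07% of the 16268 promoters of genes tested here. Of the 17 promoters found for granulocyte and mast cell genes, 5 held the letters (29.4%), against 4 of 31 for pan-leukocyte genes (12.9%), 3 of 34 for macrophage genes (8.82%) and 0 of 29 for pan-endothelial genes. Over all called genes GAGGAAGT lay in 4.8% of 3295 promoters of genes higher in CD45+ cells and in 2.4% of 2747 promoters of lower genes. AGATAA was found in 6 of 21 platelet gene promoters (28.6%), 3 of the 17 granulocyte and mast cell promoters, 3 of 31 pan-leukocyte, 3 of 34 macrophage and 2 of 29 pan-endothelial promoters, against 7.45% of those of tested genes. CCGGAAGT was found in 0 of the granulocyte, platelet and endothelial promoters and in 1 each of the pan-leukocyte and macrophage promoters, against 6.49%. Shown in full are the 250 bases before the start of 4 genes described below, taken only from promoters that held an ETS motif. Each lies on the plus strand and is written 5′ to 3′, with GAGGAAGT or its reverse complement in capitals.
Elane (neutrophil elastase, a protease of granulocyte granules), chr10:79886062-79886311: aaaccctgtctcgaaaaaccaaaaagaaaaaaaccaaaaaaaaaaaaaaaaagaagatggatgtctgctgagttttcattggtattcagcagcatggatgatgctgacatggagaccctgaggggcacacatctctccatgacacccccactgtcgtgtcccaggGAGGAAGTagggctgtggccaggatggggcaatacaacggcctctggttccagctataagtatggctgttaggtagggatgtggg
Mmp8 (neutrophil collagenase), chr9:7558179-7558428: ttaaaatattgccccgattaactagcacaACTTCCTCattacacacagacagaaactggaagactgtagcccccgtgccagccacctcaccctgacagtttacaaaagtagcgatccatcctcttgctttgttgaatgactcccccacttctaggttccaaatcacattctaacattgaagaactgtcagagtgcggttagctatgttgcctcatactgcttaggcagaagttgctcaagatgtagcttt
S100a8 (a calcium-binding protein abundant in neutrophils), chr3:90668821-90669070: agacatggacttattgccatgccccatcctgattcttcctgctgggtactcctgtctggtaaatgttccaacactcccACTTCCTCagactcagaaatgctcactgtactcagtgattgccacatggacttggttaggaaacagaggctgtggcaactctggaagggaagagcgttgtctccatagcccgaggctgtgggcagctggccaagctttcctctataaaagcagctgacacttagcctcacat
Vav1 (a blood-cell exchange factor for Rac proteins), chr17:57278850-57279099: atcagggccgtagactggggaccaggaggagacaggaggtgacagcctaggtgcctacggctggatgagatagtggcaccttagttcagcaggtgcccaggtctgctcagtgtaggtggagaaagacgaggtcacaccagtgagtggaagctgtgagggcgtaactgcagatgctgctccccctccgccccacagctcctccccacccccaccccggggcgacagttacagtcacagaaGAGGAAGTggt
The motif began 85 bases before the start of Elane and 11 bases before that of Vav1, in the gene's direction. In Mmp8 and S100a8 it lay on the opposite strand, 221 and 172 bases before the start. A match is a run of letters and not a measured binding site.

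Levels are log2 processed spot intensities from which the array's own 75th percentile was subtracted, so a level of 0 lies at that percentile and negative levels lie below it. Differences are CD45+ minus CD45- in log2 units, with the standard error (SE) of the fit, and a gene was called at an adjusted p under 0.05 (limma with Benjamini-Hochberg adjustment over all genes). Levels of different genes come from different probes and are not comparable with each other. Between 53.5% and 58.2% of probes were well above background on the 4 arrays, no spot was saturated, and arrays of a gate correlated at 0.989 (CD45-) and 0.988 (CD45+) across genes, which are not independent. Of 24576 genes tested, 4029 were higher in CD45+ cells (16.4%) and 3410 were lower (13.9%), 30.3% in all. Scaling on the probes detected on all arrays gave 3204 higher and 4237 lower, which moved the share of higher calls from 54.2% to 43.1%. The median difference over all genes was 0.10, and -0.09 under that other scaling. Without CD45- replicate 2 the count of higher genes was 2589. In a sorted bulk sample, fewer cells of a type and less RNA per cell cannot be told apart. On the slide each gate occupied its own column, so gate and column cannot be told apart either.

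The sort itself was checked first. Beyond the naming rule, genes that did not pass and some further members of a list are named as examples chosen after their values were seen. Ptprc (probe at mm9 chr1:139961083-139961142, minus strand) had levels of -5.44 and -5.54 on the CD45- arrays and 2.91 and 2.44 on the CD45+ arrays. It was not well above background on either CD45- array, and in CD45+ cells its transcript was higher by at least 199-fold (adjusted p = 6.88e-08). Ptprc and Cdh5 encode the sorted proteins, so their levels check the gates and are not findings. Cdh5 (chr8:106668159-106668218, plus strand) was read at 5.41 on both CD45- arrays and at 1.65 and 1.99 on the CD45+ arrays. Although both gates were VE-cadherin+, Cdh5 transcript was lower in CD45+ cells (difference -3.59 ± 0.30, adjusted p = 1.03e-05), and the gates did not overlap. Tek (chr4:94540624-94540683, plus strand) read 3.18 and 3.67 in CD45- cells and 0.14 and 0.56 in CD45+ cells. Tek was 8.43-fold lower in CD45+ cells (adjusted p = 3.2e-05).

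Etv2 (chr7:31418776-31418835, minus strand) was well above background on all 4 arrays. Its levels were 2.58 and 2.13 in CD45- cells and 0.11 and 0.94 in CD45+ cells, so every CD45- value lay above every CD45+ value. The difference of -1.83 ± 0.96 did not pass (adjusted p = 0.185), nor did that of a second Etv2 probe (-1.42 ± 0.77, adjusted p = 0.208). It passed with normexp background correction (adjusted p = 0.000825), on the embryo slide alone (0.00835) and on these 4 arrays alone (0.0263). On the control embryo arrays the first probe read -0.14 and -0.13 in CD45- cells and -2.39 and -2.75 in CD45+ cells. In each gate both Tie-2-Etv2 arrays were thus above both control arrays. An array cannot separate transcripts of the transgene from those of the endogenous gene.

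**Figure D1:**
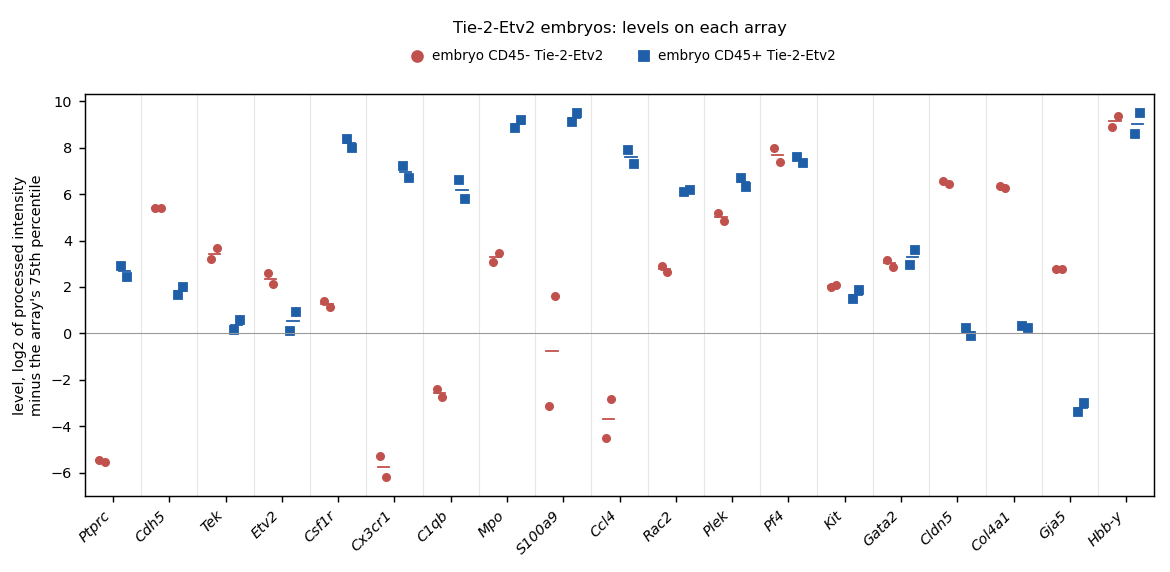
Levels of 19 genes on each of the 4 Tie-2-Etv2 embryo arrays (y axis: log2 of the processed intensity minus the array's 75th percentile; points are arrays, bars are means of 2). Ptprc, Csf1r, Cx3cr1, S100a9 and Ccl4 sit far higher in CD45+ cells, Cdh5, Cldn5, Col4a1 and Gja5 far lower, and the gates overlap for Pf4, Gata2 and Hbb-y; heights of different genes are not comparable.

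Leukocyte genes were higher in CD45+ cells almost without exception. Of 35 pan-leukocyte surface and signalling genes, 34 rose and 0 fell, with a median difference of 3.59 beside 0.10 for all genes. The 34 include Ptprc, which encodes a sorted protein. Rac2, the Rac protein of blood cells, read 2.89 and 2.65 in CD45- cells and 6.08 and 6.18 in CD45+ cells. Its transcript was 10.2-fold higher in CD45+ cells (difference 3.36 ± 0.26, adjusted p = 6.68e-06), without overlap, yet it was well above background in both gates. Tyrobp, the adaptor of many activating receptors, stood at -0.49 and -0.37 against 7.50 and 7.33 (difference 7.85 ± 0.44). Cd53, a leukocyte tetraspanin, was at least 195-fold higher. The exception was Itgam, an integrin chain of myeloid cells, whose brightest probe gave -0.50 ± 0.29 (adjusted p = 0.232). Its other probes gave 1.40 ± 0.31 (adjusted p = 0.00657) and 4.61 ± 0.28 (adjusted p = 1.35e-06). The summed level of the list was 196 to 210 in CD45- cells and 1548 to 1580 in CD45+ cells, in units of each array's 75th percentile.

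Macrophage genes included the widest differences of the comparison. Of 40, 32 were higher in CD45+ cells and 0 were lower, with a median of 6.26, or 5.97 with background-limited genes set at their bound. Csf1r, the receptor for the macrophage growth factor, rose from 1.39 and 1.14 to 8.39 and 7.98, a 121-fold difference (6.92 ± 0.26, adjusted p = 7.31e-08). The complement chains C1qa and C1qc were at least 1560-fold and at least 2785-fold higher. The fractalkine receptor Cx3cr1, a marker of embryonic macrophages and microglia, was read at -5.27 and -6.21 against 7.20 and 6.69 and was at least 3854-fold higher (adjusted p = 1.55e-07). For 13 of the 40 genes no CD45- array was well above background, among them C1qa, C1qc, Cx3cr1, Folr2 (a folate receptor of fetal macrophages, at least 597-fold) and P2ry12 (a purinergic receptor, at least 105-fold).

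Of the macrophage genes 8 did not pass, among them some that endothelium or platelets also use. Lyve1, a hyaluronan receptor of lymphatic endothelium and some macrophages, read 3.94 and 3.42 in CD45- cells and 4.86 and 5.03 in CD45+ cells (1.27 ± 0.48, adjusted p = 0.0717). Stab1, a scavenger receptor, read 5.99 and 6.21 against 7.04 and 7.02 (0.93 ± 0.42, adjusted p = 0.124). Pf4, the platelet factor chemokine, is described with the platelet genes. Siglech shows a limit of the array: its brightest probe gave -0.06 ± 0.25, whereas another gave 7.19 ± 0.46 (adjusted p = 1.74e-06). The macrophage genes of the CD45+ arrays differed somewhat between replicates, with 35 of 40 lower on replicate 2 and a median of -0.53.

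Genes of macrophage functions were called in the same direction. Of 25 phagocytosis, lysosome and oxidase genes, 22 rose and 0 fell (median 3.73, and 3.51 with bounds). Ctss, the cathepsin of antigen-processing cells, was at least 2307-fold higher. The oxidase subunits Cybb (at least 77.7-fold) and Ncf1 (6.70 ± 0.21) rose, as did the ubiquitous lysosomal proteins Ctsd (2.41 ± 0.26) and Lamp1 (1.56 ± 0.21), by less. Pattern recognition genes were higher in 15 of 18 and lower in 0, led by Ly86, the partner of a toll-like receptor relative (at least 1620-fold). Tlr2, a receptor for bacterial lipoproteins, stood at -0.13 and -0.44 against 6.36 and 5.49. Among 16 antigen presentation genes 13 rose, with the costimulator Cd86 at least 497-fold higher, and 1 fell. That gene was Cd40, a receptor that endothelium also carries (2.61 and 2.46 against -0.85 and -1.85, difference -3.88 ± 0.76, adjusted p = 0.00283).

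Most genes of secreted signals were higher in CD45+ cells, and which cells made them was not tested. Of 24 chemokines and cytokines, 18 were higher in CD45+ cells and 2 were lower. Ccl4, a chemokine that recruits leukocytes, had the largest called difference among genes above background in both gates. It read -4.52 and -2.81 in CD45- cells and 7.91 and 7.31 in CD45+ cells (11.28 ± 0.83, 2486-fold, adjusted p = 4.04e-06). Ccl3 (10.82 ± 0.46) and Ccl2 (8.79 ± 0.96) belong to the same class of attractants. The exceptions were Kitl, the stem cell factor made by niche cells (1.02 and 0.77 against -2.79 and -3.33, difference -3.95 ± 0.46), and Cxcl12, the niche chemokine (-2.30 ± 0.66, adjusted p = 0.0233). The Cxcl12 call was lost on these 4 arrays alone (adjusted p = 0.0911) and on the embryo slide alone (0.0712). It was also lost without CD45- replicate 1 or without CD45+ replicate 2. Receptors were mostly higher as well: 19 of 26 rose, such as Csf2rb, the shared chain of several myeloid cytokine receptors (5.79 ± 0.21, 55.5-fold). Only Ackr3, a scavenging receptor for Cxcl12, fell (-3.16 ± 0.46), whereas 2 receptors fell on these 4 arrays alone.

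Interferon-induced genes were higher in 15 of 26 and lower in 0, with a median of 1.59. Oas2, a sensor of double-stranded RNA, differed by 7.22 ± 0.66 and Irf7, a transcription factor of the response, by 3.87 ± 0.49. Leaving out any single array of the 4 reduced the count. The calls of Mx1 and Ifit1, not well above background in CD45- cells, did not pass with normexp background correction (adjusted p = 0.256 and 0.686). Ifit1 also did not pass with quantile normalization (adjusted p = 0.0583), scaling on detected probes (0.0547), no filter on dim probes (0.0729) or the embryo slide alone (0.133). Its call was lost when any single array of the 4 was left out.

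Among tested members, granulocyte and mast cell genes had the highest median of the lists. Only genes bright in some group pass the filter, which can raise such a median, and the order of the lists was not tested. Of 26 genes listed, 21 passed the filter on dim probes, and 18 of these were higher in CD45+ cells (median 6.87, or 6.58 with bounds). S100a9, the partner of S100a8, read -3.13 and 1.61 in CD45- cells and 9.09 and 9.50 in CD45+ cells. The CD45- arrays lay far apart, yet both were above background and below both CD45+ arrays (10.06 ± 1.50, adjusted p = 0.000497). S100a8 read -5.09 and 0.60 against 8.53 and 8.91 (10.96 ± 1.62), and only 1 of its CD45- arrays was well above background, so the size of its difference rests partly on a background value. Mpo, the peroxidase of primary granules, was already well above background in CD45- cells at 3.08 and 3.45 and reached 8.84 and 9.21 in CD45+ cells (5.75 ± 0.53, 53.9-fold). Elane rose by less, from 0.21 and 0.15 to 1.99 and 1.73 (1.68 ± 0.31, adjusted p = 0.00192).

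Markers of later granulocyte stages and of other granulocyte classes rose too. Ltf, the lactoferrin of secondary granules, differed by 8.72 ± 0.88, and Ngp, another secondary granule protein, was at least 217-fold higher. Mmp8 was below background in CD45- cells (-6.38 and -7.12), read 0.96 and 2.27 in CD45+ cells and was at least 95.6-fold higher (adjusted p = 2.45e-05). The eosinophil granule genes Prg2 (8.91 ± 1.00) and Epx (at least 296-fold) were likewise higher. Of the mast cell and basophil genes, Cpa3 (6.54 ± 0.96) and Hdc (6.87 ± 0.58) were higher. The listed mast cell and basophil genes Mcpt1, Cma1, Tpsab1, Ms4a2 and Fcer1a were not among the genes tested. The stefins Stfa1 (9.59 ± 1.02) and Stfa3 (10.97 ± 1.13) and the related Cstdc5 (9.50 ± 1.10) are protease inhibitors of myeloid cells and were among the 12 widest differences of genes measured in both gates, as was haptoglobin, Hp (9.63 ± 0.51). Csf3r, the receptor for the granulocyte growth factor, did not pass (0.10 ± 0.22, 6.46 and 6.68 against 6.48 and 6.87). The summed level of the list was 100 to 122 in CD45- cells and 1776 to 2215 in CD45+ cells.

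**Figure D2:**
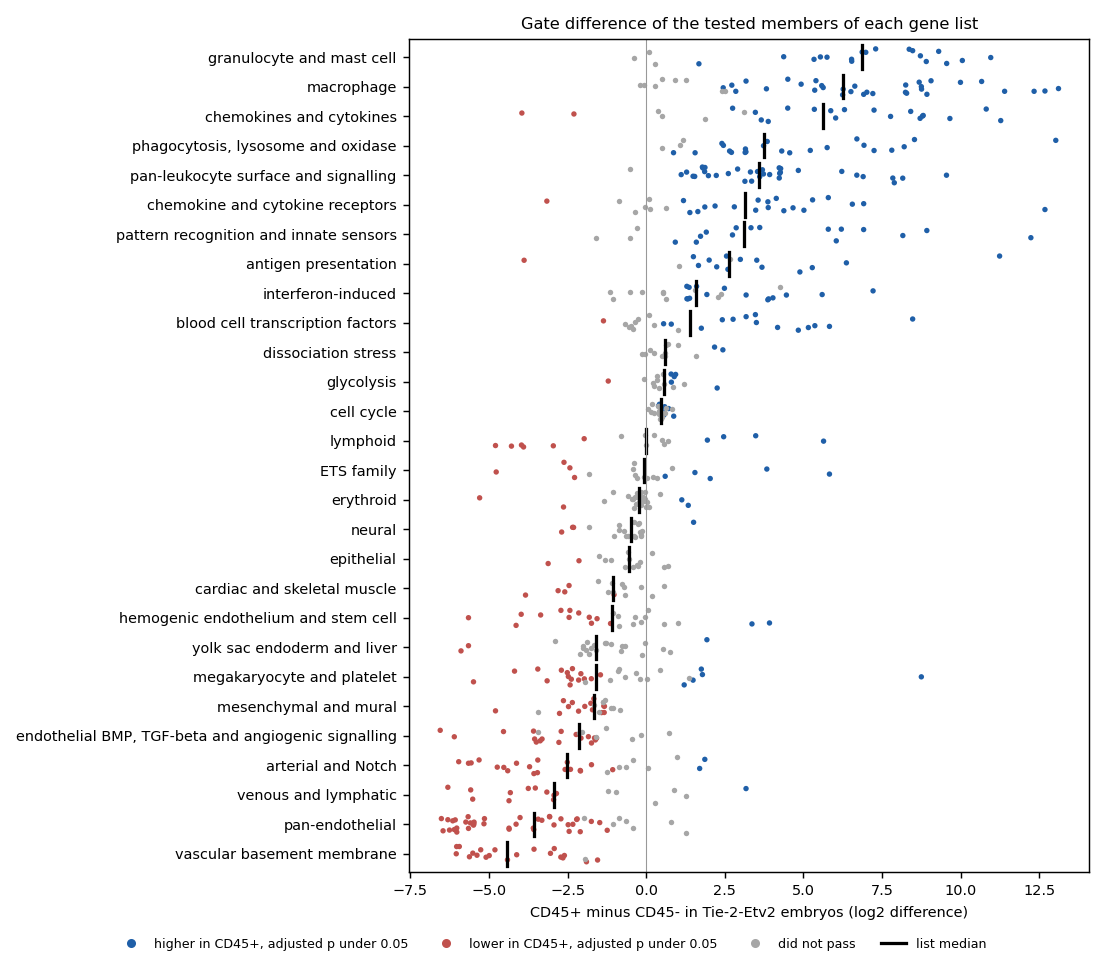
CD45+ minus CD45- difference in Tie-2-Etv2 embryos (x axis, log2) for the tested members of each of 28 gene lists (rows), each point a gene, with the list median as a black bar. Medians run from -4.41 for vascular basement membrane genes to 6.87 for granulocyte and mast cell genes; blue and red points passed the test and grey points did not.

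Transcription factors of blood cells did not all follow the leukocyte markers. Of 24, 14 were higher in CD45+ cells, 1 was lower and 9 did not pass. Those that rose most direct myeloid development. Spi1 read -4.22 and -3.03 against 2.25 and 2.16 (5.83 ± 0.36, 56.9-fold, adjusted p = 1.21e-06). Cebpe, needed for secondary granules, rose by 8.48 ± 0.87, Cebpa by 5.16 ± 0.40 and Gfi1, a repressor needed by neutrophils, by 5.37 ± 0.71. Ikzf1 (4.84 ± 0.46), Irf8 (3.18 ± 0.47), Cebpb (3.48 ± 0.68) and Zbtb16 (3.51 ± 0.54) were also higher.

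Regulators of emerging blood cells were mixed. Myb, needed for definitive blood cells, read -0.36 and -0.33 in CD45- cells and 3.47 and 4.20 in CD45+ cells (4.18 ± 0.41, 18.1-fold). Runx1, needed for endothelial cells to give rise to blood, read 1.20 and 0.88 against 3.73 and 3.88. Its difference of 2.77 ± 0.67 (adjusted p = 0.0099) did not pass on the embryo slide alone (0.0555) or without CD45- replicate 2 (0.0608) or CD45+ replicate 2 (0.0532). Nfe2 (1.76 ± 0.44), Ikzf2 (2.42 ± 0.67), Runx3 (0.80 ± 0.24) and Mef2c (0.55 ± 0.18) passed, each with a call lost under some alternative.

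Factors shared by endothelium and blood mostly did not pass. Gata2, which acts in hemogenic endothelium and stem cells, read 3.17 and 2.86 in CD45- cells and 2.95 and 3.59 in CD45+ cells, and the gates overlapped (0.26 ± 0.48, adjusted p = 0.739). Lmo2 (-0.42 ± 0.17), Lyl1 (1.01 ± 0.41), Hhex (-0.47 ± 0.37), Meis1 (-0.27 ± 0.41) and Cbfa2t3 (-0.54 ± 0.33) did not pass either. Lmo2 was called lower with quantile normalization (-0.72, adjusted p = 0.00903) and scaling on detected probes (-0.61, adjusted p = 0.0176). Lyl1 was called higher on these 4 arrays alone (adjusted p = 0.0364) and with a replicate block (0.014). Of the erythroid and megakaryocyte factors, Gata1 (-0.67 ± 0.45), Gfi1b (-0.35 ± 0.40) and Klf1 (0.09 ± 0.55) did not pass, whereas Nfe2, given above, was called higher. Tal1, the partner of Lmo2, was the exception among the shared factors in the fit over all arrays. Its level was lower in CD45+ cells, at 3.75 and 3.92 against 2.23 and 2.73 (-1.36 ± 0.37, adjusted p = 0.0176). The Tal1 call was lost on the embryo slide alone (adjusted p = 0.0777). It was also lost when CD45- replicate 1, CD45- replicate 2 or CD45+ replicate 1 was left out. Without CD45- replicate 2 or without CD45+ replicate 2, 9 of the list were higher.

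Within the ETS family 5 of 19 tested genes were higher in CD45+ cells and 4 were lower, with a median of -0.06. On these 4 arrays alone or without CD45+ replicate 1, 3 were higher, and without CD45- replicate 2 the count was 2. Besides Spi1, the higher genes were Spic, a close relative of PU.1 in some macrophages (at least 5.63-fold, not passing with normexp correction, adjusted p = 0.144), Etv5 (2.04 ± 0.39), Etv1 (1.55 ± 0.33) and Etv6 (0.61 ± 0.21, adjusted p = 0.0499). The Etv6 call was lost with quantile normalization (adjusted p = 0.151), scaling on detected probes (0.14) and no filter on dim probes (0.0894). It was also lost on these 4 arrays alone (0.0589), on the embryo slide alone (0.152) and when any single array of the 4 was left out. Etv1 did not pass with the mean of its probes (adjusted p = 0.0967). The lower genes were Ets1, Etv4 (-2.61 ± 0.22), Elk3 (-2.28 ± 0.16) and Erg. Ets1, which endothelium and lymphocytes use, read 3.60 and 3.47 against -1.17 and -1.31, a 27.3-fold difference (-4.77 ± 0.26, adjusted p = 6.18e-07). Erg, needed to keep endothelial identity, differed by -2.43 ± 0.58 (adjusted p = 0.00926). Fli1, active in endothelium and in megakaryocytes, read 4.10 and 4.00 against 3.49 and 3.75 and did not pass (-0.43 ± 0.23). The remaining members, Ets2, Elk1, Elk4, Etv3, Elf1, Elf2, Elf4, Gabpa and Etv2, did not pass; apart from Etv2 their differences lay between -0.38 and 0.82.

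**Figure D3:**
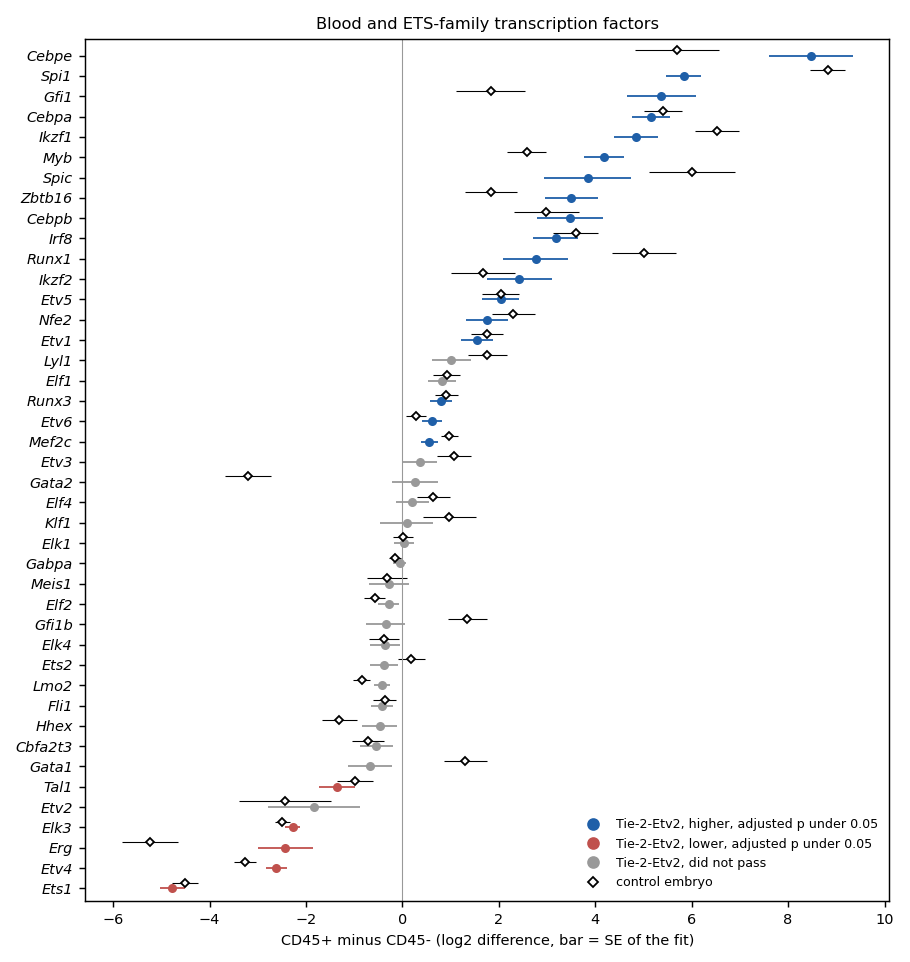
CD45+ minus CD45- difference (x axis, log2; bars are the SE of the fit) of each blood or ETS-family transcription factor in Tie-2-Etv2 embryos (filled circles) and control embryos (open diamonds). Cebpe, Spi1, Gfi1 and Cebpa lie at the right and Ets1 at the left in Tie-2-Etv2 embryos, while Gata2 lies near 0 in Tie-2-Etv2 embryos and at -3.21 in controls.

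Genes of hemogenic endothelium and stem cells were on balance lower in CD45+ cells: 12 of 24 fell and 2 rose, with a median of -1.10. The 2 that rose are surface proteins of many white cells, Cd44 (3.37 ± 0.27) and Ly6e (3.92 ± 0.28). Sox17, an endothelial factor of arteries and hemogenic sites, read 4.28 and 3.70 against -1.79 and -1.54 (-5.65 ± 0.39, 50.3-fold). Also lower were Bmp4 (-3.98 ± 0.37), the stem cell regulator Mecom (at least 3.58-fold), Procr (-2.45 ± 0.37), Hoxb4 (-2.14 ± 0.37), Mycn (-1.81 ± 0.35), Hoxa9 (-1.13 ± 0.18), Ly6a (-1.74 ± 0.45) and Nkx2-3 (-1.56 ± 0.45), besides Erg, Esam and Sox18.

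The receptors that mark early progenitors did not pass. Kit, the receptor for stem cell factor, read 1.99 and 2.07 in CD45- cells and 1.48 and 1.86 in CD45+ cells (-0.36 ± 0.58, adjusted p = 0.694). Cd34 (-1.06 ± 0.46, adjusted p = 0.109), Itga2b (-0.89 ± 0.47), Angpt1 (1.00 ± 0.59), Adgrg1 (0.58 ± 0.56), Hlf (-0.04 ± 0.71), Cd27 (-0.16 ± 1.00) and Fli1 did not pass.

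Endothelial genes were lower in CD45+ cells, with no exception among those that passed in the fit over all arrays. Of 46 pan-endothelial genes 39 fell and 0 rose there, with a median of -3.58. The 39 include Cdh5, which encodes a sorted protein. With normexp correction or a trended robust prior 2 rose. The count was 1 on these 4 arrays alone, on the embryo slide alone or with a replicate block. Cldn5, the claudin of endothelial tight junctions, read 6.57 and 6.43 against 0.21 and -0.13 (-6.46 ± 0.32, 88.1-fold, adjusted p = 2.89e-07). Emcn, an endothelial sialomucin, read 4.12 and 4.34 against -2.30 and -1.75 (-6.26 ± 0.25, 76.4-fold). Adgrf5, an adhesion receptor (-6.51 ± 0.44), and Mmrn2, a vascular matrix protein (-6.15 ± 0.32), followed closely. All 46 genes were above background on at least 1 CD45+ array, and their summed level was 458 to 535 there against 2277 to 2405 in CD45- cells.

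Some endothelial genes fell by less or did not pass. Egfl7, a secreted endothelial protein, read 8.63 and 8.80 against 7.04 and 7.44 and thus fell by 1.48 ± 0.19. Kdr, the main receptor for vascular endothelial growth factor, read 4.30 and 4.36 against 3.61 and 3.76 (-0.64 ± 0.26, adjusted p = 0.0925). Its relatives Flt1 (-5.16 ± 0.45, 35.7-fold) and Flt4 (-4.36 ± 0.31) were called lower. Nrp1 (-0.86 ± 0.35), Bmx (-0.43 ± 0.17) and Adgrl4 (-1.99 ± 0.85) did not pass, and Mcam gave 0.78 ± 0.30 for its brightest probe and -5.89 ± 0.36 for the other.

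Arterial, venous and matrix genes fell as well. Of 27 arterial and Notch genes 19 were lower and 2 higher (median -2.51). Gja5, an arterial gap junction protein, was 62.4-fold lower (2.75 and 2.78 against -3.37 and -3.02), and the Notch ligand Dll4 fell by 5.32 ± 0.43, its receptor Notch4 by 4.40 ± 0.32 and the target Hey1 by 4.74 ± 0.63. The exceptions were the receptor Notch2 (1.70 ± 0.19) and the chemokine receptor Cxcr4 (1.87 ± 0.54, adjusted p = 0.0246), both also used by blood cells. The Cxcr4 call was lost when CD45- replicate 2 or either CD45+ replicate was left out. Among 17 venous and lymphatic genes 11 fell, led by Aplnr (-6.31 ± 0.80), Ephb4 (-5.58 ± 0.36), Foxc2 (-5.52 ± 0.73) and the venous factor Nr2f2 (-4.32 ± 0.36). In the fit over all arrays only Dab2, an endocytic adaptor that macrophages also contain, rose (3.18 ± 0.48). With normexp correction, a trended robust prior or these 4 arrays alone 3 genes of the venous and lymphatic list rose. The count was 2 with the strict filter, the mean of probes, a replicate block or the embryo slide alone.

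Vascular basement membrane genes were the most uniform list on the low side. Of 21, 20 fell and 0 rose, with a median of -4.41, or -4.12 with the background-limited gene at its bound. Col4a1, a chain of the collagen of basement membranes, read 6.36 and 6.28 against 0.32 and 0.23 (-6.04 ± 0.33, 65.9-fold), and its partner Col4a2 differed by -5.94 ± 0.29. The laminin chain Lama4 (-6.03 ± 0.38) and Sparcl1 (-5.62 ± 0.48) were close to these. Signalling genes of the vessel wall fell in 17 of 25 (median -2.14), with Esm1, a marker of sprouting tip cells, at -6.55 ± 0.84, the peptide Apln at -6.10 ± 0.42 and Bmp6 at least 10.1-fold lower. The count of 17 became 10 without CD45- replicate 1 or CD45+ replicate 2, and 11 on the embryo slide alone. Klf2 and Klf4, which respond to blood flow, did not pass (-0.17 ± 0.45 and -1.29 ± 0.66). The genes with the widest fall measured in both gates also included Tmem255a (-6.82 ± 0.70), Plac1 (-6.49 ± 0.60), Tmem204 (-6.49 ± 0.28), Igfbp3 (-6.47 ± 0.53), Gm1987 (-6.43 ± 0.60), Bace2 (-6.36 ± 0.65) and Efna1 (-6.34 ± 0.55).

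Megakaryocyte and platelet genes were called in both directions. Of 30, 15 were lower in CD45+ cells, 5 were higher and 10 did not pass, with a median of -1.60 (-1.17 with bounds). Genes of the platelet receptor for von Willebrand factor were on the lower side, with Gp1ba (2.47 and 2.16 against -0.99 and -1.28, difference -3.45 ± 0.70), Gp9 (-2.15 ± 0.50) and Gp5 (-2.08 ± 0.65). The enzyme Alox12 fell by 4.19 ± 0.32 and Vwf, which endothelium also makes, by 5.49 ± 0.41. Genes that rose are shared with other white cells: Plek (1.49 ± 0.27), Bin2 (1.21 ± 0.19), Rgs18 (1.79 ± 0.25), Nfe2 and P2ry12. Pf4 read 7.98 and 7.36 in CD45- cells and 7.60 and 7.32 in CD45+ cells, so the gates overlapped (-0.21 ± 0.32, adjusted p = 0.687). The summed level of the list was 580 to 727 in CD45- cells, 395 to 422 in CD45+ cells and 225 to 267 in control CD45- cells. Without CD45- replicate 1, 8 of the list were lower.

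Markers of other cells that a sort could carry were examined in the same way. Of 27 erythroid genes 2 rose, 2 fell and 23 did not pass, with a median of -0.22. The embryonic globin Hbb-y read 8.90 and 9.36 against 8.58 and 9.48, and Hba-a1 read 6.67 and 7.89 against 6.25 and 7.83. The higher value belonged to replicate 2 in each gate, and the median of the list was 1.02 higher on replicate 2 in CD45- cells and 0.96 higher in CD45+ cells. The 4 that passed were Aqp1 (-5.30 ± 0.31), a water channel that endothelium also has, Sptb (at least 1.86-fold lower), Tfrc (1.34 ± 0.21) and Hemgn (1.13 ± 0.29).

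Mesenchymal and mural genes were lower in CD45+ cells in 14 of 23 and higher in 0 (median -1.65). Col3a1, a fibrillar collagen, read 4.06 and 2.61 against 1.10 and 0.06, and Col1a2 5.18 and 3.62 against 2.87 and 2.03. Every one of the 23 genes was lower on replicate 2 than on replicate 1 in both gates, by a median of 1.40 in CD45- cells and 0.59 in CD45+ cells. Only 1 of the 23 was lower when either CD45- replicate 1 or CD45+ replicate 2 was left out. Their summed level was 230 to 338 in CD45- cells and 95.9 to 143 in CD45+ cells, and their part in the endothelial differences was not tested.

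Lymphoid genes went both ways, with 4 higher and 6 lower of the 17 tested (24 listed); without CD45- or CD45+ replicate 2, 2 were higher. Blnk, an adaptor of B cells and macrophages, differed by 5.64 ± 0.53 and Cd79b by 2.47 ± 0.26. Lck (-4.29 ± 0.25), Thy1 (-4.79 ± 0.45), Ebf1 (-3.90 ± 0.56) and Tcf7 (at least 13.1-fold lower) were higher in CD45- cells. Cd3e read 1.11 and 0.66 against 0.74 and 1.03 and did not pass; it encodes a chain of the T cell receptor complex.

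The same gate difference in control embryos came from 4 other arrays, and no array was shared. There 4904 genes were higher in CD45+ cells (20.0%) and 4082 lower (16.6%), 36.6% in all. Of the 4029 genes higher in Tie-2-Etv2 embryos, 3434 were also higher in control embryos, 85.2% of the first list and 70.0% of the second. Of the 3410 lower genes 2915 were shared (85.5% and 71.4%), and 12 genes were called in opposite directions, 6 each way. The difference between the gate differences of the genotypes was tested as an interaction in the same fit. It was more positive in Tie-2-Etv2 embryos for 140 genes (0.570%) and more negative for 141 (0.574%), 1.14% in all. The gate difference kept its sign and was smaller in Tie-2-Etv2 embryos for 177 of these 281 genes, kept its sign and was larger for 55 and had opposite signs for 49. Fewer genes passed on the embryo slide alone, 75 more positive and 93 more negative. Without CD45- Tie-2-Etv2 replicates 1 or 2, or CD45- control replicate 1, 82, 67 and 69 were more positive. Without CD45+ control replicate 2, 221 were more negative.

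**Figure D4:**
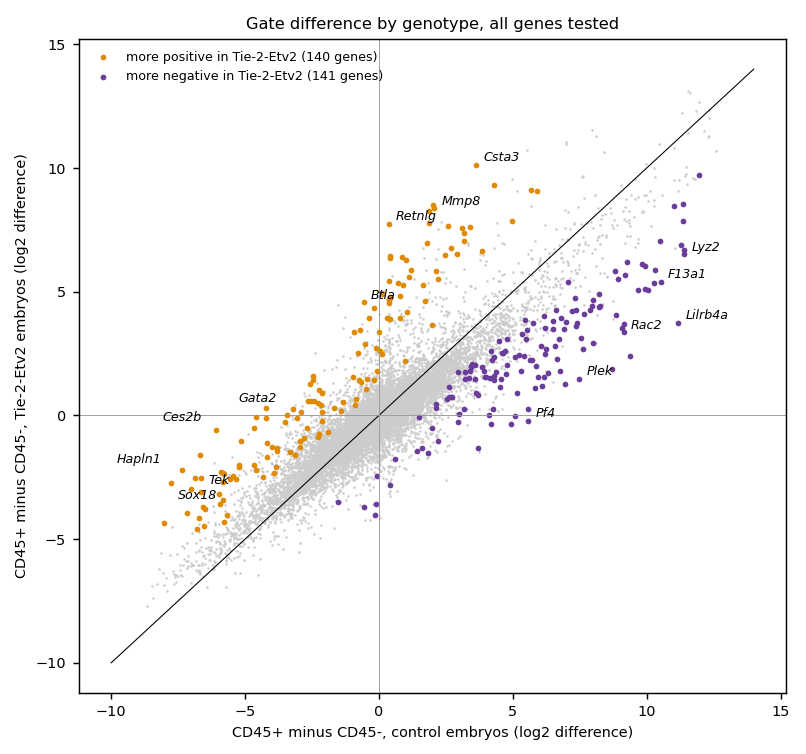
CD45+ minus CD45- difference (log2) of each of 24576 genes in control embryos (x axis) and Tie-2-Etv2 embryos (y axis), with the line of equal differences. The 140 genes more positive in Tie-2-Etv2 embryos lie above the line, many of them below 0 on the x axis, and the 141 more negative genes lie below it, nearly all to the right of 0.

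Of the lists, pan-leukocyte genes contributed 16 members to the 141 more negative genes, and macrophage and platelet genes 5 each. For 136 of them the mean level was higher in CD45+ than in CD45- cells of control embryos. In CD45- cells the median Tie-2-Etv2 minus control difference of these genes was 2.73 and 137 were above the control, whereas in CD45+ cells the median was -0.16. The members were chosen by the interaction, so these medians describe where it lay and support nothing further. Rac2 read -3.31 and -3.36 in control CD45- cells against 2.89 and 2.65 in Tie-2-Etv2 CD45- cells, while CD45+ cells gave 5.90 and 5.73 against 6.08 and 6.18. The CD45- arrays of the genotypes were far apart and the CD45+ arrays close together (interaction -5.80 ± 0.37, adjusted p = 5.08e-05).

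Of the 35 pan-leukocyte genes 16 had a more negative interaction and 0 a more positive one, and 15 to 19 had it under each alternative tried for the list. Vav1 read -1.92 and -1.17 in control and 3.44 and 3.42 in Tie-2-Etv2 CD45- cells, with 6.52 and 6.39 against 6.32 and 6.36 in CD45+ cells (interaction -5.09 ± 0.33). Nckap1l, a subunit of the complex that Rac drives in blood cells (-5.52 ± 0.26), Was (-4.40, adjusted p = 7.5e-05), Fermt3 (-4.73, adjusted p = 2.6e-05), Btk and Coro1a moved likewise. The interactions of Ptprc (-0.26, adjusted p = 1), Cd53 (0.00) and Itgb2 (-1.33, adjusted p = 0.28) did not pass.

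The same pattern was seen for some myeloid and platelet genes. Plek, a substrate of protein kinase C in platelets and leukocytes, read -0.27 and -0.45 in control and 5.16 and 4.85 in Tie-2-Etv2 CD45- cells (interaction -5.98 ± 0.38). Pf4 read 3.00 and 2.39 in control CD45- cells against 7.98 and 7.36 in Tie-2-Etv2 CD45- cells, and 8.46 and 8.10 against 7.60 and 7.32 in CD45+ cells (-5.79 ± 0.46, adjusted p = 0.000174). Of 40 macrophage genes only 5 had a more negative interaction. These were Pf4, Lyz2, Lyz1, F13a1 and Fcgr3, whereas Csf1r, Cx3cr1, C1qa and Adgre1 did not pass. Lyz2, a lysozyme, was not well above background in control CD45- cells and read -0.46 and -0.22 in Tie-2-Etv2 CD45- cells, with 4.52 and 4.06 against 5.96 and 6.38 in CD45+ cells. Its interaction did not pass with normexp correction (adjusted p = 0.776).

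Other leading genes of this kind were Lilrb4a, an inhibitory receptor of myeloid cells (-7.44 ± 1.34), Fyb (-6.96 ± 0.62) and Sla (-6.82 ± 0.64), both adaptors of blood-cell receptors, Arhgap30 (-5.46 ± 0.40), Susd3 (-5.66 ± 0.54) and Prune2 (-5.28 ± 0.48). Prune2 did not differ between the gates of Tie-2-Etv2 embryos (-0.36 ± 0.34, adjusted p = 0.481). Spi1 had a more negative interaction too, as its CD45- level was -6.74 and -5.96 in control and -4.22 and -3.03 in Tie-2-Etv2 embryos (-2.99 ± 0.51, adjusted p = 0.0185). That call was lost with normexp correction (adjusted p = 0.359), on the embryo slide alone (0.181) and without CD45+ replicate 1 (0.0514) or 2 (0.074). The Lilrb4a interaction did not pass on the embryo slide alone (adjusted p = 0.188). It was also lost when any single Tie-2-Etv2 embryo array or control CD45+ replicate 1 was left out.

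The 140 more positive genes differed mainly in CD45+ cells. All 140 had a larger absolute genotype difference in CD45+ than in CD45- cells and were higher there in Tie-2-Etv2 embryos, with a median of 3.33 against -0.04 in CD45- cells. These genes too were chosen by the interaction, which is the genotype difference in CD45+ minus that in CD45- cells. The split and the medians therefore describe where it lay and support nothing further. In control embryos the mean level of 90 of them was lower in CD45+ than in CD45- cells. Tek read -3.21 and -3.10 in control and 0.14 and 0.56 in Tie-2-Etv2 CD45+ cells, while CD45- cells gave 3.30 and 3.67 against 3.18 and 3.67. The CD45+ arrays of the genotypes were thus apart and the CD45- arrays overlapped (interaction 3.56, adjusted p = 0.0024). Sox18, a SoxF factor of endothelium, read -4.09 and -3.97 against 0.94 and 1.19 in CD45+ cells (interaction 5.05 ± 0.92, adjusted p = 0.0266), a call lost with a replicate block (0.0586) and when any single embryo array of either genotype was left out (0.0567 to 0.115).

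Of 46 pan-endothelial genes 9 had a more positive interaction and 0 a more negative one. These were Cdh5, which encodes a sorted protein, and Pecam1, Tek, Flt4, Esam, Egfl7, Ecscr, Sox18 and Cd93. On the embryo slide alone, without CD45- replicate 1 or without CD45+ replicate 2 the count was 3. Cdh5 read 0.33 and -0.66 in control and 1.65 and 1.99 in Tie-2-Etv2 CD45+ cells. Its interaction of 2.36 ± 0.43 (adjusted p = 0.0264) did not pass on the embryo slide alone (0.154) or with a replicate block (0.0522). Vegfc (3.12, adjusted p = 0.014) and the Notch target Nrarp (2.75, adjusted p = 0.048) were the arterial and Notch genes among them. On the embryo slide alone, with no filter on dim probes or with a replicate block 1 of the pair passed, and without CD45- or CD45+ replicate 2 or control CD45- replicate 1 the count was 0. Of the 21 basement membrane genes 0 passed in the fit over all arrays, 2 with normexp correction and 1 on the embryo slide alone. Gata2 read -0.23 and -0.13 in control and 2.95 and 3.59 in Tie-2-Etv2 CD45+ cells, while the CD45- arrays of the genotypes overlapped (3.47 ± 0.68, adjusted p = 0.0404). The Gata2 interaction did not pass on the embryo slide alone (adjusted p = 0.105), with no filter on dim probes (0.0662), with a replicate block (0.0856) or when any single Tie-2-Etv2 array of the embryo was left out (0.0566 to 0.159). The platelet receptor Clec1b, carried also by some endothelium-derived cells, had an interaction of 3.41 (adjusted p = 0.0019).

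A further set of more positive genes was low outside Tie-2-Etv2 CD45+ cells. Retnlg, a secreted protein of neutrophils, read 1.27 and 1.45 in Tie-2-Etv2 CD45+ cells and between -7.29 and -5.91 on the other 6 embryo arrays. It was at least 79.9-fold higher in CD45+ than in CD45- cells, and its fitted interaction was 7.40 ± 0.61 (adjusted p = 0.000201). For it and the genes named next, the filter was passed through groups with bright signal, and the levels in the other embryo groups are wholly or partly background values. The sizes of these interactions therefore have no order among themselves and are no measured folds. Gm9733 (6.07 ± 0.49), Ankrd22 (5.95 ± 0.55) and Btla (5.14 ± 0.71), like Retnlg, were not well above background on any of those other 6 arrays. Itgb2l (6.49 ± 1.27), Cstdc6 (6.41 ± 1.02) and Mmp8 (6.31 ± 1.14) were above it on 1 of the 2 control CD45+ arrays and Csta3 (6.50 ± 1.09) on both. Mmp8 read -3.53 and -6.49 there. Of these, Itgb2l, Csta3, Cstdc6, Mmp8 and Btla did not pass on the embryo slide alone, and Btla did not pass with normexp correction (adjusted p = 0.547). The Itgb2l call was also lost with quantile normalization (adjusted p = 0.0613), scaling on detected probes (0.0514), no filter on dim probes (0.0653) or a replicate block (0.0745). Leaving out any single Tie-2-Etv2 embryo array lost it as well.

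Of 21 granulocyte and mast cell genes 1, Mmp8, passed in the interaction, with a median of 0.49. With normexp correction 7 passed and the median was 2.31, on the embryo slide alone 3 passed, and without CD45- replicate 1 or 2, CD45+ replicate 2 or either control CD45- array the count was 0. Ltf read -1.22 and -1.33 in control CD45+ cells against 3.87 and 4.22 (interaction 5.29, adjusted p = 0.0912). Mpo was higher in both gates of Tie-2-Etv2 embryos and did not pass (-2.49, adjusted p = 0.25). Ces2b, a carboxylesterase, read -5.57 and -6.52 in control CD45+ cells and lay between -1.29 and 0.13 in the other 3 groups (5.48 ± 0.45). Ces2b was not well above background on either of those control CD45+ arrays. Hapln1, a matrix link protein, read -4.36 and -2.84 in control and 1.74 and 2.74 in Tie-2-Etv2 CD45+ cells (5.13 ± 0.66).

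**Figure D5:**
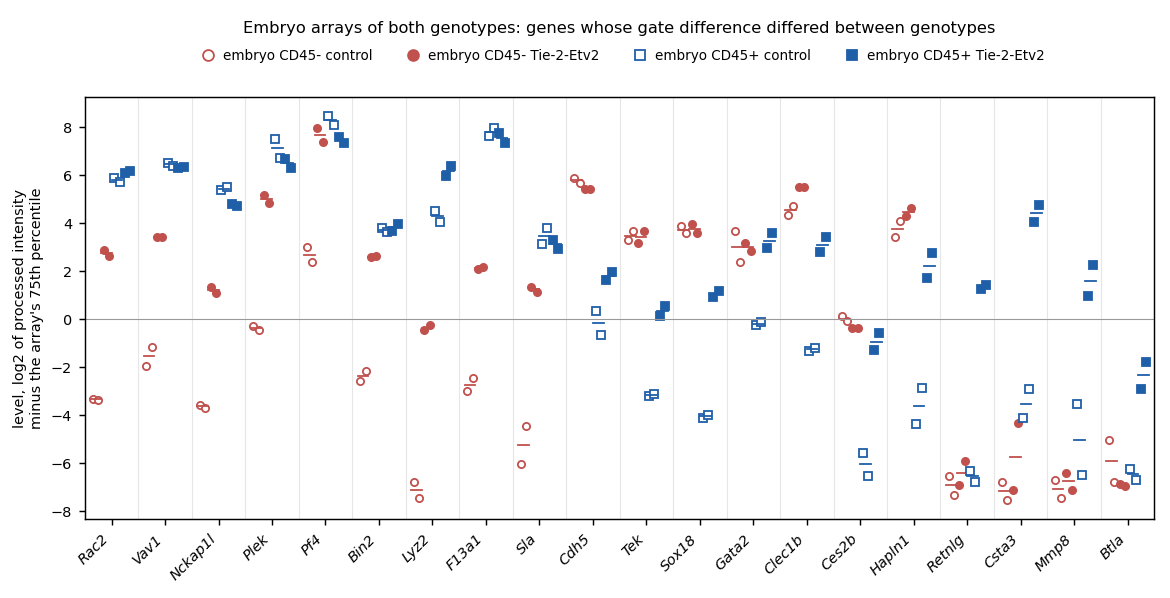
Levels of 20 genes on the 8 embryo arrays (y axis: log2 of the processed intensity minus the array's 75th percentile; open symbols control, filled symbols Tie-2-Etv2; circles CD45-, squares CD45+; bars are means of 2). From Rac2 to Sla the open circles stand apart at the bottom; from Cdh5 to Hapln1 the open squares are lowest; from Retnlg to Btla the filled squares stand apart at the top.

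Fewer genes were called between the gates of Tie-2-Etv2 yolk sacs. In the yolk sac 1096 genes were higher in CD45+ cells (4.46%) and 1455 lower (5.92%), 10.4% in all. Of the 4029 genes higher in the embryo 953 were also higher in the yolk sac, 23.7% of the embryo list and 87.0% of the yolk sac list, and for lower genes the count was 1169 (34.3% and 80.3%). The interaction was more positive in the embryo for 932 genes (3.79%) and more negative for 717 (2.92%), 6.71% in all. Embryo and yolk sac arrays lay on different slides, but each gate difference was taken within a slide. Leaving out single arrays of these 8 gave 504 to 785 more positive and 364 to 611 more negative genes. The arrays that lowered the first count by more than 1.5 times were, in the embryo, CD45- replicates 1 and 2 (528 and 515) and CD45+ replicate 1 (509), and in the yolk sac CD45- replicate 1 (576) and CD45+ replicates 1 and 2 (527 and 504). The second count became 364, 415, 408 and 449 without these embryo arrays and CD45+ replicate 2, and 384, 391 and 440 without these yolk sac arrays.

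Of 40 macrophage genes 25 had a more positive interaction and 0 a more negative one, as had 29 and 0 of the 35 pan-leukocyte genes. Cx3cr1 read -3.21 and -2.52 in CD45- and 3.64 and 3.99 in CD45+ cells of the yolk sac, against -5.27 and -6.21 and 7.20 and 6.69 in the embryo (interaction 6.00 ± 0.80, adjusted p = 0.00231). Hpgds, a prostaglandin synthase of macrophages and mast cells (6.45 ± 0.50), and Trem2, a lipid-sensing receptor of macrophages (6.13 ± 1.20), had large fitted interactions too. So had Cd86 (6.11 ± 0.38), Mcoln2 (6.29 ± 1.09) and Cd300c2 (5.88 ± 0.52), and with Cx3cr1 these were the 6 largest fitted values. Cx3cr1 and Cd86 were not well above background on either CD45- array of the embryo. The strict filter, which requires signal well above background in both embryo gates, left out most of the 6. The sizes of most of these interactions thus rest partly on background values and have no measured order. The median gate difference of the pan-leukocyte list was 1.04 in the yolk sac and 3.59 in the embryo, and that of the granulocyte and mast cell list 5.68 and 6.87.

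Of 46 pan-endothelial genes 22 had a more negative interaction and 1 a more positive one, and the median gate difference of the list was -1.74 in the yolk sac. Emcn differed by -2.81 there (interaction adjusted p = 0.00067) and Nr2f2 by -3.48 (adjusted p = 0.42). Of the 6 widest more negative genes, 4 were not well above background on any yolk sac array, the exceptions being Dtx1 and Car8. No gate difference was measured in the yolk sac for those 4, so their fitted interactions rest on the embryo difference and have no order. Foxf2, a forkhead factor, read 1.08 and 0.21 in CD45- cells of the embryo and -6.92 and -6.23 in those of the yolk sac (interaction -5.22 ± 0.85). Gm1987 (-6.19 ± 0.85), Adamts8 (-5.10 ± 1.10), Adamtsl2 (-5.09 ± 0.71), Dtx1 (-4.93 ± 0.81) and Car8 (-4.88 ± 0.59) followed. The Adamts8 values belong to its brightest probe, and a second probe gave a gate difference of 0.33 ± 0.24 in the embryo (adjusted p = 0.356).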

How the data were processed

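RNA of sorted cells was labelled with Cy3 and hybridised to 16 single-colour Agilent mouse arrays, of which 4 carry the main comparison. The deposited scanner files hold spot intensity values from Agilent Feature Extraction 10.7, per the file headers, already background-subtracted by that software as its processed signal. Probe positions in these files are on mm9, per the file headers. The series value table, which is centred within tissue and gate, was not used.

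From these files, log2 of the processed intensity was taken and the 75th percentile of each array subtracted. Control spots and 87 probes lacking an unflagged spot on some array were left out of 55681 probes. Probes were kept if some group had both arrays well above background (34126 probes), and the brightest probe stood for a gene. This gave 24576 genes, 16530 of them with a symbol, named through the RefSeq table of GRCm38.p6 by accession or symbol; 25948 of all probes could not be named that way. limma 3.58.1 in R 4.3.3 fitted the group means of all 16 arrays together (lmFit, eBayes, 8 residual degrees of freedom), so all groups share one estimate of the spread, with Benjamini-Hochberg adjustment over all genes. Interactions were contrasts of that fit. The procedure was tested on simulated data.

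Where no array of a gate was well above background for a gene, only a bound is given, the bright gate's mean over the higher of the lowest well-measured signal and the dim probe's own value, written "at least N-fold". Summed levels add the members' unlogged levels. The number of arrays, 2 per group, limits the precision. Promoter sequences are RefSeq's on GRCm38.p6, matched by symbol. Named genes were the sorted and targeted genes, the 12 widest called differences in each direction among genes above background in both gates, the 10 and 6 widest interactions each way against control embryo and yolk sac, up to 4 called members per list plus any against the list's direction, and every tested blood, ETS and hemogenic factor, apart from some genes that are not reported here. The members and lists were chosen with earlier results of these data known.

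Alternatives were quantile normalization, normexp background correction (offset 50), scaling on 23491 probes detected on all arrays, no filter or a strict filter on dim probes, the mean of a gene's probes, fewer arrays in the fit, a trended robust prior, a replicate block, and leaving out single arrays. Leaving out control or yolk sac arrays was added after seeing the data.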

Additional observations from a re-analysis of the deposited data

Results flagged for a closer look

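The gate difference (CD45+ minus CD45-, log2) differed between Tie-2-Etv2 and control embryos by the interaction test for 140 genes that were more positive and 141 that were more negative in Tie-2-Etv2 embryos. The more positive genes with the largest fitted values were Retnlg (7.40), Csta3 (6.50), Itgb2l (6.49), Cstdc6 (6.41), Mmp8 (6.31), Gm9733 (6.07), Ankrd22 (5.95), Ces2b (5.48), Btla (5.14) and Hapln1 (5.13). Each of these genes was not well above background on all or some arrays of at least 1 embryo group, so their sizes have no measured order. The widest more negative genes were Lilrb4a (-7.44), Fyb (-6.96), Sla (-6.82), Plek (-5.98), Rac2 (-5.80), Pf4 (-5.79), Susd3 (-5.66), Nckap1l (-5.52), Arhgap30 (-5.46) and Prune2 (-5.28).

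Between embryo and yolk sac of Tie-2-Etv2 animals the gate difference was more positive in the embryo for 932 genes and more negative for 717. The more positive genes with the largest fitted values were Hpgds (6.45), Mcoln2 (6.29), Trem2 (6.13), Cd86 (6.11), Cx3cr1 (6.00) and Cd300c2 (5.88). Most of them were not well above background on all arrays of both embryo gates, so these sizes have no measured order either. The more negative genes with the largest fitted values were Gm1987 (-6.19), Foxf2 (-5.22), Adamts8 (-5.10), Adamtsl2 (-5.09), Dtx1 (-4.93) and Car8 (-4.88). Gm1987, Foxf2, Adamts8 and Adamtsl2 were not well above background on any yolk sac array, so the sizes of their interactions have no measured order. Groups of 2 arrays are too small to look for single outlying arrays.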

How the results depend on the processing

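Of the 181 named genes called between the gates of Tie-2-Etv2 embryos, 139 kept direction and call under every alternative that tested them, as did 33 of 59 called interactions with control embryos of named genes and list members and 10 of the 12 widest with the yolk sac. Directions turned for Adamts8 with the strict filter, which left its other probe (0.33 between the gates and 0.51 in the yolk sac interaction). On the embryo slide alone, 75 genes were more positive and 93 more negative than in control embryos, where fewer arrays estimate the spread. Leaving out single arrays gave 2589 to 2821 higher and 2414 to 2532 lower genes between the gates, 67 to 172 more positive and 99 to 221 more negative genes against control embryos, and 504 to 785 and 364 to 611 against the yolk sac. Deviations of same-numbered arrays correlated between the gates at 0.22 in Tie-2-Etv2 embryos, 0.39 in control embryos, 0.37 in Tie-2-Etv2 yolk sacs and 0.03 in control yolk sacs; as not every pair of groups passed 0.1, the numbers were not taken as pairing. A replicate block gave 4745 higher and 3753 lower genes, 153 and 165 genes against control embryos, and 1279 and 891 against the yolk sac. Cell cycle genes called higher numbered 10, but 2 under quantile normalization or scaling on detected probes. Genes near background have only bounds.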

Other observations

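Of 16 glycolysis genes 5 rose in CD45+ cells and 1 fell. Hk2, the hexokinase of many immune cells, read 0.37 and 0.23 in CD45- cells and 2.50 and 2.62 in CD45+ cells (2.26 ± 0.25, limma adjusted p = 7.3e-05). The gene that fell was Slc2a1, the glucose transporter of endothelium and red cells (5.61 and 5.70 against 4.40 and 4.49, difference -1.21 ± 0.23). Without single arrays of the 4, 1 or 2 glycolysis genes rose.

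Of 25 cell cycle genes 10 rose, with a median of 0.47. E2f1, a factor of S-phase entry, differed by 0.88 ± 0.17 and Mki67 by 0.59 ± 0.14. The Mki67 call was lost under scaling on detected probes, and the count fell to 2 there. Of 13 stress genes of tissue dissociation, Zfp36 (2.44 ± 0.44) and Atf3 (2.18 ± 0.49) rose. Fos (0.58 ± 0.37), Jun (-0.04 ± 0.34) and Egr1 (0.60 ± 0.34) did not pass. The stress genes were lower on replicate 2 than on replicate 1 in CD45- cells for 13 of 13, by a median of 0.83.

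Counts for markers of tissues outside blood and vessels changed with the arrays in the fit. Of 23 yolk sac endoderm and liver genes 2 were lower in CD45+ cells, Sox17, described with the hemogenic genes, and Gata4 (2.34 and 2.12 against -4.21 and -3.11), and 1 was higher, Trf (1.93 ± 0.60). With a list median of -1.58, 11 were lower on the 4 arrays alone and 10 on the embryo slide alone, and Trf did not pass when any single array of the 4 was left out. Afp read 4.52 and 3.93 against 2.02 and 2.40 and did not pass. Of 20 neural genes 3 were lower (5 with normexp correction or on the 4 arrays alone), Nes (-2.69 ± 0.24), Stmn2 (-2.34 ± 0.49) and Isl1 (-2.31 ± 0.59), and 1 was higher, Elavl4 (1.51 ± 0.51). The Elavl4 call was lost when any single array of the 4 was left out, with a replicate block (adjusted p = 0.0695) and with the mean of its probes (0.55, adjusted p = 0.327), since its other probe gave -0.42 ± 0.57. Of 15 cardiac and muscle genes 5 were lower, among them Tnni1 (-3.84 ± 0.53), and 2 were lower without CD45- replicate 1. Of 15 epithelial genes 2 were lower, Krt15 and Krt19, and 0 to 4 under the alternatives. Epcam was not well above background on any of the 4 arrays.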
